A study of Mus musculus with 21 samples.

Results

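The genes described here lie on both sides of *Erbb2* on mouse chromosome 11, at about 2 to 5 Mb from it. They were taken from the deposited gene table by position, as genes whose start lies between 93.4 and 96.4 Mb or between 100.4 and 103.3 Mb, and 9 genes in these ranges were left out by the first letters of their names (*Col1a1*, *Itga3*, *Stat5b*, *Stat5a*, *Stat3*, *Rpl27*, *Itga2b*, *Fzd2* and *Adam11*). The ranges had been chosen by the measured expression of tumors of both cohorts, so the difference between cohorts is given as a description, and nothing is read from its test. Of 23203 genes with a position, 1633 were on chromosome 11 and 166 met the rule. There were 66 on the centromere side, between *Utp18* and *Gm11531*, and 100 on the telomere side, between *Gm12348* and *1700028N14Rik*. *Erbb2* itself lies between them at chr11:98412470-98437716 (GRCm38.p6).

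RNA was sequenced in bulk from 21 mammary tumors of female virgin mice. All carried FloxNeoNeuNT, an activated *Neu* cDNA in the *Erbb2* locus behind a stop cassette flanked by loxP sites, and MMTV-CreNLST, which removes the cassette. Control tumors (N) came from 9 mice, of which 7 were Gata4(loxP/+);FloxNeoNeuNT;MMTV-CreNLST and 2 (N-15 and N-17) carried no *Gata4* loxP allele. RhoC tumors (R) were R26(RhoC/+);FloxNeoNeuNT;MMTV-CreNLST, with a Cre-dependent mouse *RhoC* transgene at *Rosa26*. There were 12 of them from 8 mice. R-13, R-14, R-15 and R-16 came from 1 mouse, R-6 and R-7 from another, and R-18, whose label names no mouse, was counted as a mouse of its own. The label of R-21 gives mouse Q3738, while the paper's list of sequenced tumors gives that mouse to another RhoC tumor. The label was followed, and R-21 is a RhoC tumor in both. The MMTV promoter limits Cre largely to mammary epithelium, so stroma, vessels and leukocytes in a tumor keep the silent alleles. The ages of the mice are not in the labels. Separate tumors of a mouse are not independent animals.

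*ERBB2* is known for being amplified in human breast cancer together with neighbors such as *GRB7*, and the stretch that is amplified differs in length between tumors. Genes carried along in such a stretch need not act in the tumor, although many are transcribed in proportion to their copies. The flanks hold genes of many kinds, among them the *Hoxb* cluster of homeobox factors, *Acly* of lipid synthesis, the small GTPase *Rab5c*, the ETS factor *Etv4* and the kinase gene *Map3k14*. Copy number was not measured in these libraries, and its part in the values below was not tested. In bulk tissue, fewer cells of a type and less RNA per cell cannot be told apart.

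Between 47309780 and 100741339 reads were counted on genes per tumor. Counts were brought to a common library size with TMM factors (CPM), and 19315 of 38730 genes with any count passed the filter on low counts. The gene of the transgene, *Rhoc*, had 25.98, 50.7 and 172 CPM in the lowest, median and highest control tumor and 22.8, 88.2 and 148 CPM in the RhoC tumors, so the cohorts overlapped. The lowest of all tumors was the library labelled R-2, whose *Rhoc* level thus went against its label, and without it the telomere-side median log2 fold change given below was 0.43. Summed CPM of the epithelial markers *Epcam*, *Krt8*, *Krt18* and *Cdh1* lay between 1437 and 3902 in controls and between 1075 and 3220 in RhoC tumors. N-17 stood apart by muscle and fat, with 3705 CPM over *Acta1*, *Ckm* and *Myh4* and 213.5 CPM over *Adipoq*, *Plin1* and *Cidec*, against control medians of 0.609 and 0.15 CPM. R-10 was highest of the RhoC tumors in both, with 548 and 21.4 CPM against medians of 0.514 and 0.103 CPM, and lowest of all tumors in the epithelial markers. N-4 stood apart by base composition. Its median deviation (log2 CPM minus the median of the gene over all 21 tumors) went from 0.69 to -0.94 between the lowest and the highest of 5 equal bins of transcript GC.

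Of the flanking genes, 55 of 66 on the centromere side and 92 of 100 on the telomere side passed the filter, and 7 of the 11 and 7 of the 8 that did not were under 1 CPM in every tumor. In FPKM (fragments per length of the gene and depth of the library, as scaled by the authors), 15 and 32 genes reached 10 at their median over the tumors, and 34 and 31 stayed under 1. The highest medians were 88.7 FPKM for *Grn*, which encodes the lysosomal protein progranulin, 77.8 for *Lrrc59*, an endoplasmic reticulum protein, 71.7 for *Acly*, 70.2 for *Rab5c* and 69.5 for *Psme3*, a proteasome activator. Only *Lrrc59* of these lies on the centromere side.

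In the comparison of 12 RhoC with 9 control tumors, telomere-side genes were mostly higher in RhoC tumors and centromere-side genes were not shifted. On the telomere side 73 of 92 genes had a higher fitted mean in RhoC tumors, with a median log2 fold change of 0.54 (quartiles 0.14 and 0.86). On the centromere side 27 of 55 were higher and the median was -0.004 (quartiles -0.28 and 0.49), beside a median of -0.01 over all 19315 genes. No flanking gene passed an adjusted p of 0.05 in edgeR's quasi-likelihood test, where 0.223% of all genes did (43 genes). At an unadjusted p under 0.05, 35 telomere-side genes were higher and 6 lower, and 9 centromere-side genes were higher and 3 lower, while 10.5% of all genes were higher and 9.93% lower. DESeq2, run as an alternative, called 25 of the 147 at an adjusted p of 0.05, 17 higher and 2 lower on the telomere side and 4 higher and 2 lower on the centromere side, beside 6.24% of all genes (3.66% higher and 2.59% lower). The ranges had been set with this contrast known, so nothing is read from these counts. None of the 147 genes separated the cohorts without overlap, as 0.0155% of all genes did.

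**Figure D1:**
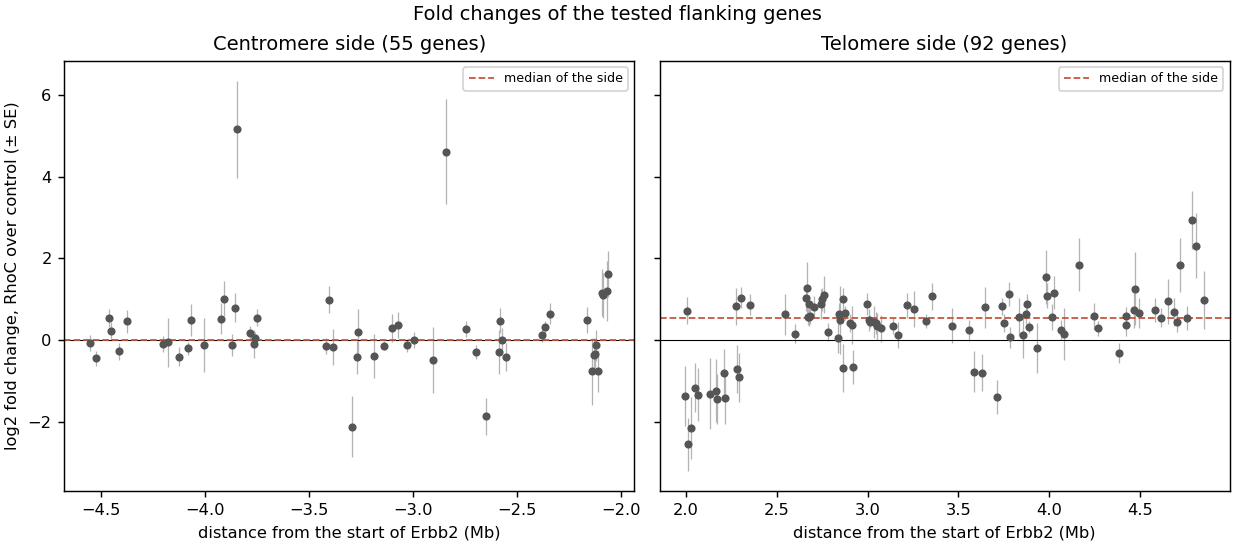
Log2 fold change of each tested flanking gene, RhoC over control, with its standard error, against the distance of its start from the start of *Erbb2* in Mb. The left panel holds 55 centromere-side and the right panel 92 telomere-side genes, and the dashed line is the median of the side (-0.004 and 0.54). The telomere-side genes nearest to *Erbb2* lie below 0 and most of the others above it.

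The telomere-side shift came from some RhoC tumors and not from all. For each tumor the deviations of the 92 telomere-side genes were reduced to their median. Controls had -0.72, -0.08 and -0.01 as their lowest, median and highest value (mean -0.19 ± 0.22, SD, n = 9). RhoC tumors had -0.12, 0.11 and 0.80 (mean 0.24 ± 0.34, n = 12). No control was above 0, and 5 of 12 RhoC tumors were above 0.4. These were R-21 (0.80), R-2 (0.70), R-10 (0.62), R-18 (0.45) and R-16 (0.44). R-6 followed at 0.22. R-1 and R-15 lay just above 0, at 0.00154 and 0.000272, and the other 4 RhoC tumors lay between -0.12 and -0.04, among the controls. The deviations are from the median over all 21 tumors, of which 12 were RhoC. Under some alternatives N-1, N-7, N-8, N-15 and N-17 lay above 0, with 0.17 as the highest, and R-6 reached 0.52. The other controls stayed below 0. On the centromere side controls had -0.20, -0.06 and 0.22 (mean -0.04 ± 0.12) and RhoC tumors -0.40, 0.01 and 0.24 (mean 0.03 ± 0.16), and the cohorts overlapped. R-18 was the lowest tumor on the centromere side, at -0.40 and below every control, while its telomere side was at 0.45.

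**Figure D2:**
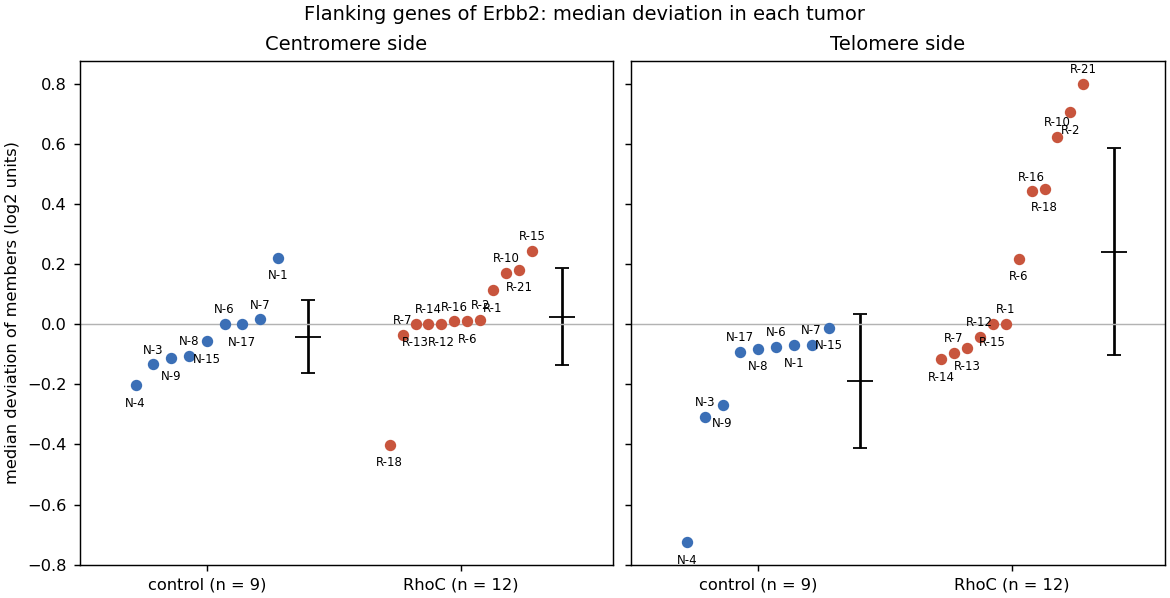
Median deviation of the tested flanking genes in each tumor (log2 units, points labelled by tumor), by side and cohort, with the mean and SD of each cohort in black. On the telomere side R-21, R-2, R-10, R-18 and R-16 lie above 0.4 and all 9 controls below 0.

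Tumors of the same mouse differed on the telomere side. Of the 4 tumors from 1 mouse, R-16 stood at 0.44, and R-15, R-13 and R-14 at 0.00, -0.08 and -0.12. The pair from the other mouse stood at 0.22 (R-6) and -0.10 (R-7). The lowest value was that of N-4, the tumor whose deviations went with GC content, and it had -0.20 on the centromere side. The median transcript GC was 54.8% on the telomere side, 53.8% on the centromere side and 48.95% over all tested genes. After subtraction of the same tumor's median over genes on other chromosomes in the same bin of GC, N-4 went from -0.72 to -0.16. The 5 high RhoC tumors then had 0.75 (R-2), 0.71 (R-21), 0.62 (R-10), 0.45 (R-18) and 0.44 (R-16), and the cohort means were -0.11 ± 0.08 for controls and 0.21 ± 0.36 for RhoC tumors.

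The higher telomere side was not confined to these limits. Beyond them, at 5 to 10 Mb toward the telomere, the median log2 fold change was 0.46 over 62 genes (53 higher), and past 10 Mb it was 0.64 over 224 genes (186 higher). Toward the centromere it was -0.15 over 17 genes at 5 to 10 Mb and 0.01 over 866 genes past 10 Mb. Within 1 Mb of *Erbb2* it was -2.12 over 55 genes (50 lower), with *Erbb2* at -0.73 and its neighbor *Grb7* at -3.74, and at 1 to 2 Mb it was -0.07 over 38 genes. Within 1 Mb N-8 and N-17 had median deviations of 4.31 and 2.88, while the other 7 controls lay between -0.37 and 0.62 and the RhoC tumors between -0.445 and 0.20. *Grb7* alone was high in more controls, with 893 to 2422 CPM in all but N-15 (42.2 CPM), beside 16.8 to 168 CPM in RhoC tumors. *Erbb2* was also lowest in N-15, at 57.9 CPM, with 600 to 2725 CPM in the other controls. The tumors did not share 1 profile. R-10 had 0.62 at the flank, 0.00 at 5 to 10 Mb and 0.68 past 10 Mb. R-21 had 0.80, 0.66 and 0.06. R-1, with a flank at 0.00, had 1.02 at 5 to 10 Mb and -0.13 past it, and R-15, with a flank at 0.00, had 0.57 past 10 Mb.

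Runs of neighboring genes showed where each tumor was high. The median deviation was taken over 11 neighboring tested genes around each flanking gene, and such a window was counted as raised above 0.5 and as lowered below -0.5. On the telomere side 347 of 1104 windows of RhoC tumors were raised (31.4%) and 39 lowered (3.53%). Of 828 control windows, 40 were raised (4.83%) and 110 lowered (13.3%). On the centromere side 5.30% of 660 RhoC windows and 3.23% of 495 control windows were raised. The telomere-side share was 82.6% in R-21, 75% in R-2, 73.9% in R-10, 48.9% in R-16, 39.1% in R-18 and 29.4% in R-6. On all other chromosomes of these tumors the share was 5.58% in R-21, 8.997% in R-2, 8.37% in R-10, 2.25% in R-16, 4.32% in R-18 and 7.58% in R-6. The lowered windows of controls were mostly those of N-4, with 68.5% of its telomere-side windows beside 21.4% on its other chromosomes, and N-3, with 40.2% beside 11.2%. These are the tumors whose genes of highest GC were lowest, at -0.94 in N-4 and -0.40 in N-3.

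The raised runs began and ended at different genes. In R-21 a run of 95 windows reached from *Coasy*, a coenzyme A synthase, past the far limit, and its highest window was at 1.51. In R-16 a run of 42 windows went from *Etv4* to *Fmnl1*, a formin, with a highest window of 1.07. In R-10 the longest run held 44 windows from *Ramp2*, a co-receptor of adrenomedullin, to *Itga2b* (highest 1.29), after shorter ones from *P3h4* to *Stat5b* and from *Stat3* to *Mlx*. R-2 was raised from *Krt23*, nearer to *Erbb2*, to *Rundc1* (58 windows), and again from *Ccdc43* past the far limit (35 windows, highest 3.92). R-12 was raised over the near end alone, from *Krt15* to *Stat3* (31 windows, highest 1.43). R-6 had several runs, among them 15 windows from *Hsd17b1* to *Cntd1* and 18 from *Krt10* to *Fkbp10*, 2 of these around flanking genes. R-18 had shorter runs, the longest with 14 windows from *Stat5a* to *Cntnap1*. On the centromere side the highest and lowest windows lay in the *Hoxb* cluster, at 1.56 in R-12 and -1.16 in R-7. Other runs lay outside it, among them 10 raised windows from *Kat7* to *Polr2k-ps* in N-1 and 10 from *Eme1* to *Dlx4* in R-21.

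**Figure D3:**
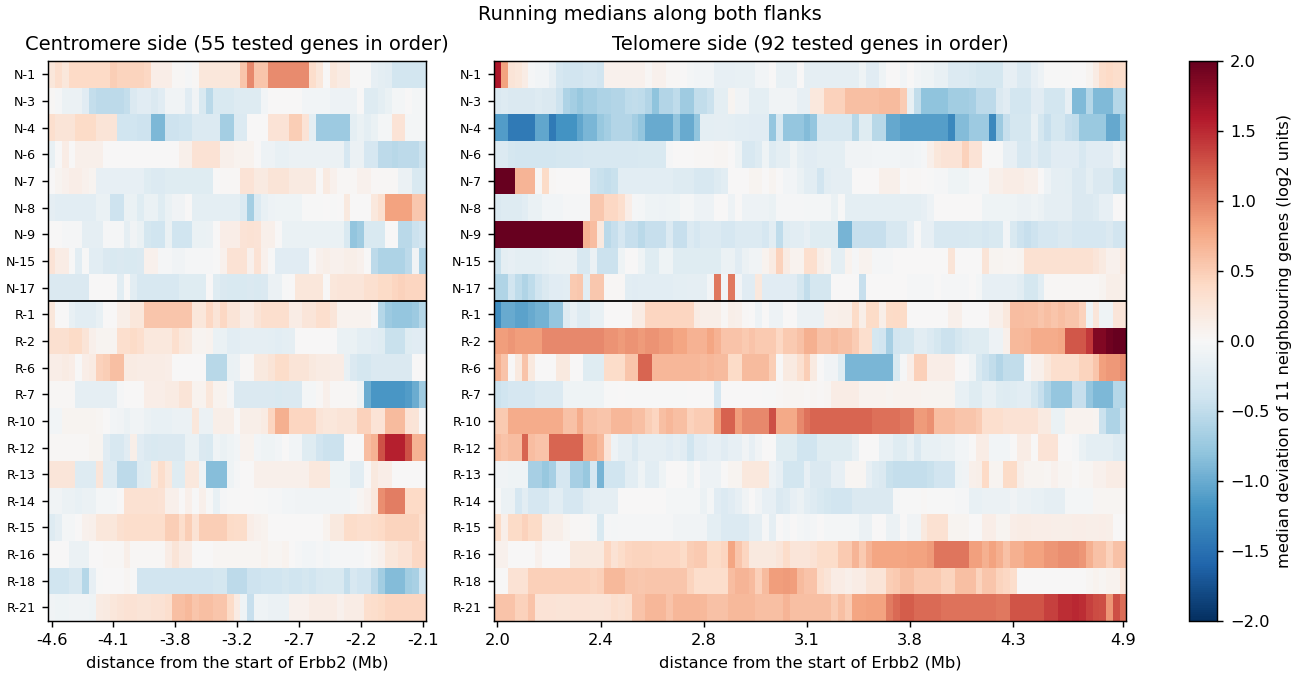
Median deviation over 11 neighboring genes (color, log2 units) around each tested flanking gene in order along the chromosome, with 9 control tumors above the line and 12 RhoC tumors below it. Axis marks give the distance of the gene from the start of *Erbb2* in Mb. The darkest red blocks are the near end of the telomere side in N-1, N-7 and N-9 and its far end in R-2.

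The near end of the telomere side held steep steps between neighboring genes in the controls N-1, N-7 and N-9, and single genes there stood high in other tumors too. *P3h4*, a prolyl hydroxylase complex component of collagen processing, had 195, 170 and 99.6 CPM in N-1, N-7 and N-9 and between 4.35 and 9.498 CPM in the other 6 controls. In RhoC tumors it lay between 3.39 and 82.3 CPM, with R-6 highest. *Nt5c3b*, a nucleotidase gene at chr11:100422321-100441808, had 243, 393 and 408 CPM in these 3 tumors, between 9.97 and 20.3 CPM in the other controls and between 9.90 and 32.9 CPM in RhoC tumors. All 3 were thus far above every other tumor at *Nt5c3b*. *Fkbp10*, which lies between *P3h4* and *Nt5c3b* and overlaps *Nt5c3b* on the other strand, was not high in them, with deviations of -0.35, 0.02 and 0.36.

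Past *Nt5c3b* the tumors parted in turn. *Klhl10*, which encodes a BTB and Kelch protein known from the testis, had 0.218 CPM in N-1, 3.45 in N-7 and 7.24 in N-9, so N-1 was no longer high. *Klhl11*, its neighbor, had 37.2 CPM in N-1, 26.8 in N-7 and 700 in N-9, against a control median of 29.3. From there to *Kat2a* N-9 was high at every tested gene but *Dhx58os* (deviation 0.61), with deviations between 3.15 (*Dhx58*) and 5.24 (*Ttc25*), and *Acly* had 10390 CPM in it beside 606 in the next control. N-7 was high again at 2 genes of low expression, *Ttc25* (2.30) and *Zfp385c* (1.36). *Ttc25* was also high in R-18 (3.35) and R-2 (3.09), and *Cnp* in R-18 (2.75) and N-8 (2.69). *Ttc25*, *Zfp385c* and *Dhx58os* were named after their values were seen. *Kat2a*, a histone acetyltransferase gene at chr11:100704746-100712465, was the last, with 995 CPM in N-9 and at most 84.6 CPM in the other controls. At the next gene, *Rab5c*, N-9 had 88.6 CPM, below the control median of 104. With *Fkbp10* and *Dhx58os* left aside, the run of high genes ended after *Nt5c3b* in N-1, after *Klhl10* in N-7 and after *Kat2a* in N-9.

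**Figure D4:**
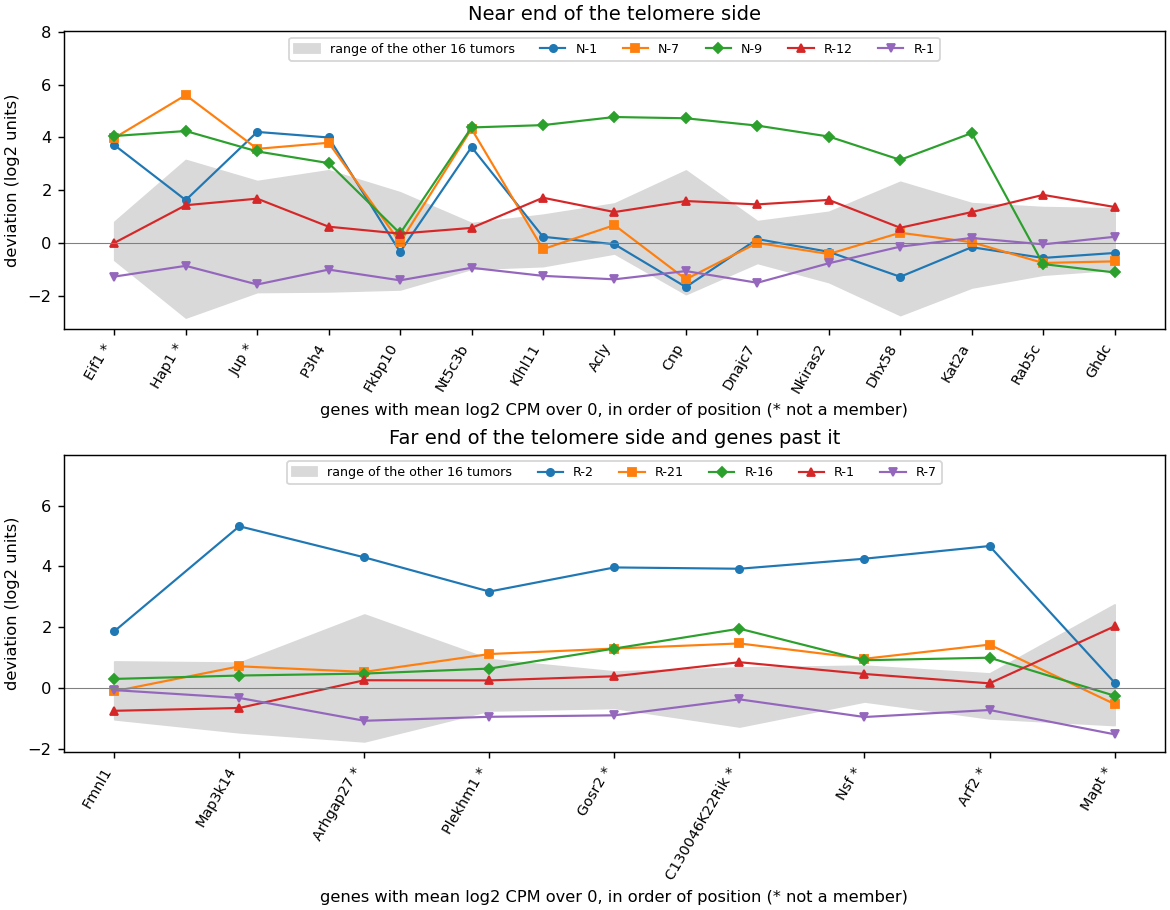
Deviation of single genes (log2 units) at the near end of the telomere side (top) and at its far end and past it (bottom), in order of position and with mean log2 CPM over 0. Colored lines are the tumors named in each panel, the grey band is the range of the other 16 tumors, and a star marks genes outside the rule. N-9 drops from 4.17 at *Kat2a* to -0.80 at *Rab5c*, and R-2 drops from 4.67 at *Arf2* to 0.17 at *Mapt*.

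These steps set the fold changes of the genes at that end. The 14 tested genes from *P3h4* to *Kat2a* had a median log2 fold change of -1.28 (12 lower in RhoC tumors), and without N-9 it was 0.47 (10 higher). DESeq2 gave 0.35 (8 higher and 6 lower). Its default settings replace outlying counts, so the high counts of N-9 may not have entered in full. For *Acly* and *Dnajc7* it gave 0.61 and 0.39. In edgeR the 78 genes past *Kat2a* had 0.58 (71 higher). *Acly*, ATP citrate lyase, which makes cytosolic acetyl-CoA for lipid synthesis, had 297, 345 and 10390 CPM in controls and 146, 589 and 1068 CPM in RhoC tumors. Its median was higher in RhoC tumors, while its fitted log2 fold change was -1.34 (SE 0.65), and 0.65 (SE 0.30) without N-9. *Dnajc7*, a co-chaperone of the heat shock proteins, went from -1.44 to 0.40 in the same way. *Nt5c3b*, with 3 high controls, kept -2.11 (SE 0.63) without N-9.

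The promoters of genes beside these steps are printed here, with that of *Map3k14* at the far end, and *Nt5c3b*, which has several windows, is left out. Each line holds 300 bases from 250 before the start to 50 after it, 5′ to 3′ on the strand of the gene, from RefSeq on GRCm38.p6. The windows are chr11:100441674-100441973 (plus strand) for *Klhl10*, chr11:100472733-100473032 (minus) for *Klhl11*, chr11:100712418-100712717 (minus) for *Kat2a*, chr11:100738166-100738465 (minus) for *Rab5c* and chr11:103267352-103267651 (minus) for *Map3k14*. Capitals mark GGGCGG (GC box) and CCAAT on either strand.
Klhl10: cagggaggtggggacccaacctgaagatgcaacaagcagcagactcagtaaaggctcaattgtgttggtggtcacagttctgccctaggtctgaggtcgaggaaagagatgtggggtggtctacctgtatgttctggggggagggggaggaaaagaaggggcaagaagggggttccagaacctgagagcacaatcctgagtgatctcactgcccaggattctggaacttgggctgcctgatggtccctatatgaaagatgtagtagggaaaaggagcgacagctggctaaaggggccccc
Klhl11: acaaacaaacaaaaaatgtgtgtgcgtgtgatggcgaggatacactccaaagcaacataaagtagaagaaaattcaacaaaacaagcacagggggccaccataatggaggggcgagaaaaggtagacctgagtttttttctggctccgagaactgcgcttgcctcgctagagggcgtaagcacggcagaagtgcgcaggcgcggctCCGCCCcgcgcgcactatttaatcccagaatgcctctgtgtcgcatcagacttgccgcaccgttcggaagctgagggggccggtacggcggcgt
Kat2a: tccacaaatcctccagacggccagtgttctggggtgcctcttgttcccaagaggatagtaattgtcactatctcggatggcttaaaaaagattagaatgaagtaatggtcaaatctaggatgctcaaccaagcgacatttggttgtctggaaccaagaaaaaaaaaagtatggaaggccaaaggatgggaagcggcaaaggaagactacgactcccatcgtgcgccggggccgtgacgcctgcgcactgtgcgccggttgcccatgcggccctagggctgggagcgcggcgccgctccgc
Rab5c: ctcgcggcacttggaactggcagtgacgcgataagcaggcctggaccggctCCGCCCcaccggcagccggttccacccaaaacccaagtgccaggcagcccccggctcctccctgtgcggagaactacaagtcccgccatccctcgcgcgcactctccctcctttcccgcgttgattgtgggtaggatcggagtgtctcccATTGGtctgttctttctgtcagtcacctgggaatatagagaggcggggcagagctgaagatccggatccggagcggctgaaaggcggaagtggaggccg
Map3k14: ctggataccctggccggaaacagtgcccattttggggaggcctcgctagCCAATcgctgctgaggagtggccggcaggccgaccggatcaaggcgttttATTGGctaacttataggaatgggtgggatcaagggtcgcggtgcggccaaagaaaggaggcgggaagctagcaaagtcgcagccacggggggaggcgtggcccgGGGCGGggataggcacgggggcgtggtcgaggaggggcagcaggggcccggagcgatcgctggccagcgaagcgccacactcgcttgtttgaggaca

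*Klhl10* and *Nt5c3b* are divergent neighbors, and the *Klhl10* window shared 215 bases with 1 of the RefSeq windows of *Nt5c3b*. N-1 was high at *Nt5c3b* and not at *Klhl10*, although these windows overlap. Neither the *Klhl10* nor the *Kat2a* window held any of the 5 motifs searched. *Klhl11* and *Rab5c* had 1 GC box each, *Rab5c* also 1 CCAAT, and *Map3k14* had 1 GC box and 2 CCAAT. Over the 102 flanking genes with a RefSeq promoter, GGGCGG was in 65.3% of 72 telomere-side windows and 39.0% of 41 centromere-side windows, beside 35.7% of all 32851 windows. CCAAT was in 47.2% and 34.1% (37.4% of all), CCGGAAG (ETS core) in 16.7% and 17.1% (8.86%), CACGTG (E-box) in 11.1% and 22.0% (7.15%) and TATAAA in 1.39% and 9.76% (13.6%), each on both strands. A match in letters is a description and not a bound site.

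At the far end R-2 was the highest tumor at *Fmnl1*, *Map3k14* and *1700028N14Rik*. *Map3k14*, the kinase of noncanonical NF-kappaB signaling, at chr11:103219762-103267472, had 6.24, 13.3 and 28.8 CPM in controls and 9.76, 19.2 and 690 CPM in RhoC tumors. R-2 was far above all other tumors, and the next RhoC tumor had 30.6 CPM. The log2 fold change of 2.31 (SE 0.80) became 0.32 (SE 0.27) without R-2. *Fmnl1*, nearer to *Erbb2*, had 63.0 CPM in R-2 and between 8.44 and 31.6 CPM elsewhere. *Efcab15*, which lies between them and was named after its values were seen, had at most 0.381 CPM in controls, and R-21 (3.13 CPM), R-2 (3.08) and R-1 (1.85) were its highest tumors. Outside the limit the same tumor stayed high over *Arhgap27* (deviation 4.29), *Plekhm1* (3.17), *Gosr2* (3.96), *Nsf* (4.25) and *Arf2* (4.67) and was at 0.17 at *Mapt*. *1700028N14Rik* overlaps *Map3k14* on the same strand, so its 12.02 CPM in R-2 cannot be told apart from reads of that gene.

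For *Rab5c*, *Slc25a39*, *Etv4* and *G6pc3* the differences were spread over more tumors. *Rab5c*, a GTPase of early endosomes at chr11:100715009-100738215, had 67.2, 104 and 180 CPM in controls and 122, 193 and 547 CPM in RhoC tumors. The cohorts overlapped between 122 and 180 CPM, and R-12, R-6 and R-2 were the highest. The log2 fold change was 1.03 (SE 0.26), and 0.85 (SE 0.22) without R-12. *Slc25a39*, the mitochondrial importer of glutathione, had 41.1, 125 and 188 CPM against 91.4, 243 and 507 CPM, with R-16 and R-12 highest, and R-2 lowest of its cohort. Its log2 fold change was 1.09. *Etv4*, an ETS factor of the PEA3 group, had 16.1, 32.9 and 70.5 CPM against 37.8, 64.5 and 231 CPM. R-10 was highest, and the value of 1.07 (SE 0.33) was 0.78 (SE 0.26) without it. Without R-10 the median log2 fold change of the telomere side was 0.50, and the part of its muscle and fat in these values was not tested. *G6pc3*, a glucose-6-phosphatase, had 5.76, 14.02 and 19.4 CPM against 13.7, 22.6 and 61.8 CPM (log2 fold change 1.13).

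**Figure D5:**
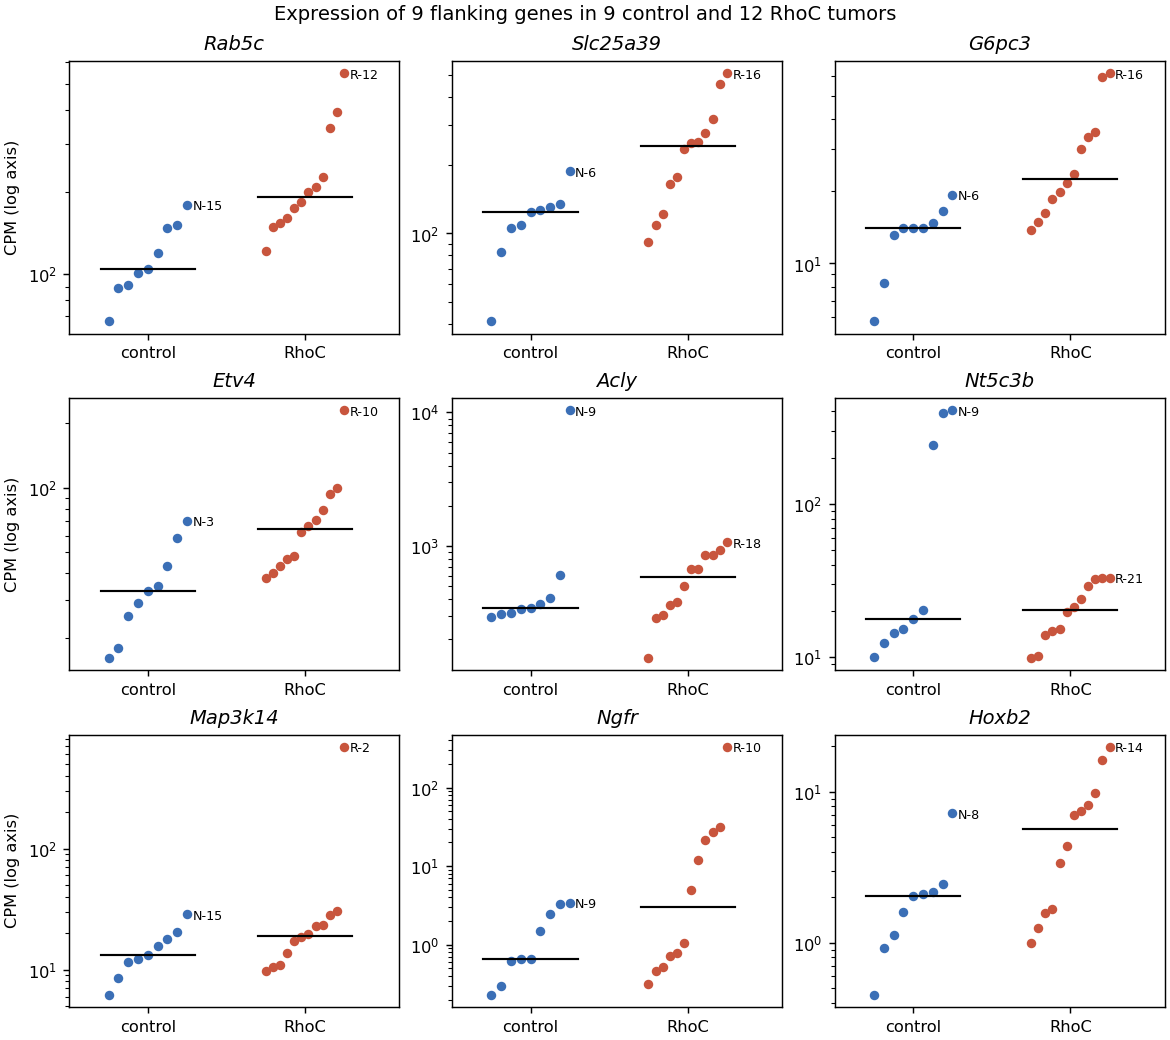
CPM on a log axis of 9 flanking genes in 9 control and 12 RhoC tumors, with the median of each cohort as a line and the highest tumor named. In *Acly*, *Map3k14* and *Ngfr* 1 tumor lies far above the rest (N-9 at 10390, R-2 at 690 and R-10 at 329 CPM), in *Nt5c3b* 3 controls do, and in *Rab5c*, *Slc25a39*, *G6pc3* and *Etv4* the cohorts overlap with higher RhoC medians.

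The genes were also read by role, from lists written with earlier results of these data known. None of the listed genes passed an adjusted p of 0.05 in edgeR's test, where between 0 (vascular) and 7 (mitochondrial) genes of a list were at an unadjusted p under 0.05 and DESeq2 called between 0 and 3. Over all genes 10.5% were higher and 9.93% lower at that p, and DESeq2 called 6.24%, and nothing is read from the counts of the lists. Each list is set beside the median log2 fold change of -0.01 over all genes, and some genes stand in 2 lists. The tested flanking genes themselves had 100 of 147 higher and a median of 0.37, so the counts below describe the lists and are not read as results about roles. In the list for ubiquitin, autophagy and lysosome 9 of 10 tested genes were higher in RhoC tumors (median 0.38). *Becn1*, a core autophagy gene, had 50.6, 61.4 and 89.4 CPM in controls and 66.3, 92.7 and 156 CPM in RhoC tumors, a log2 fold change of 0.67 (SE 0.17). *Naglu*, a lysosomal enzyme of heparan sulfate breakdown, had 1.04 with R-21 highest at 80.7 CPM. Of the mitochondrial and acyl-CoA genes 10 of 12 were higher (median 0.56), and *Acly* was the lowest. *Acsf2*, an acyl-CoA synthetase gene, had 0.79, and *Atp5g1*, a subunit of ATP synthase, 0.64.

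Of the genes for the cytoskeleton and centrosome 6 of 8 were higher (median 0.80). The gamma-tubulin genes *Tubg1* and *Tubg2*, close in sequence so that reads on both were discarded, had 0.81 and 0.89. *Cntnap1*, an axonal cell adhesion gene, had 1.11, and *Gfap*, an intermediate filament of glia, had 1.26 with R-21 (34.5 CPM) included and 0.01 without it. The vesicle genes were higher in 7 of 9 (median 0.52), with *Rab5c* and *Ghdc* (0.87) as the highest. Histone and transcription genes were higher in 8 of 13 (median 0.20). *Hexim2*, an inhibitor of the elongation factor P-TEFb, reached 24.99 CPM in R-21 and lay between 0.460 and 3.5 CPM in all other tumors. Splicing genes were higher in 4 of 6 (median 0.34), with *Eftud2* at 0.58 and *Dhx8* at 0.47. No list had all its genes on 1 side of 0.

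Vascular genes did not share the direction. Of 4 tested, 2 were higher and 2 lower (median -0.31). *Cd300lg*, a capillary endothelial receptor, had 3.10, 8.28 and 90.2 CPM in controls and 4.98, 10.1 and 17.2 CPM in RhoC tumors. The highest control was N-17, and the log2 fold change of -0.80 was 0.08 without it. *Aoc3*, vascular adhesion protein of vessels and fat, had -0.67, and -0.07 without N-17. In N-17 the endothelial markers *Pecam1*, *Cdh5* and *Kdr* were at 629 CPM, the highest of the controls, whose lowest and median were 80.3 and 174 CPM, and its fat markers were high too. The part of these cells in the values was not tested. Of the list for innate immunity and leukocytes, which also holds *Ngfr*, its highest gene, 7 of 9 were higher (median 0.44), while the leukocyte markers *Ptprc*, *Cd3e*, *Cd79a*, *Adgre1* and *Csf1r* summed to between 70.9 and 392 CPM in controls and between 141 and 488 CPM in RhoC tumors.

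On the centromere side as a whole the differences had no common direction, and the largest fold changes were those of *Chad* and *Ngfr*. *Ngfr*, the low-affinity neurotrophin receptor, known from basal epithelium, at chr11:95568818-95587735, had 0.232, 0.65 and 3.40 CPM in controls and 0.318, 3.02 and 329 CPM in RhoC tumors. R-10 was highest by far, R-13, R-2, R-14 and R-6 had between 12.1 and 31.3 CPM, and the remaining 7 lay among or just above the controls. The log2 fold change was 4.62 (SE 1.29), and 2.66 (SE 0.91) without R-10, the RhoC tumor with the highest muscle and fat markers. The basal markers *Krt5*, *Krt14* and *Trp63* summed to between 6.53 and 2539 CPM in controls and between 4.10 and 16660 CPM in RhoC tumors, and their part in *Ngfr* was not tested. *Chad*, a cartilage matrix protein gene chosen after its values were seen, had at most 0.437 CPM in controls and 0.00, 2.38 and 69.5 CPM in RhoC tumors, with R-21 highest. Its log2 fold change was 5.17 (SE 1.196), and 3.73 (SE 0.92) without R-21. It overlaps *Acsf2* on the other strand, which was also highest in R-21 at 156 CPM.

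The homeobox genes, which pattern the body axis and skin, were split, with 4 higher and 7 lower of 11 (median -0.34), among them *Meox1* of the telomere side (0.35). Within the cluster the neighbors *Hoxb2*, *Hoxb3* and *Hoxb4* had positive log2 fold changes (1.61, 1.10 and 1.16, without R-14 1.33, 0.62 and 0.77, and without its mouse of 4 tumors 1.075, 0.40 and 0.70), while *Hoxb5*, *Hoxb6*, *Hoxb7*, *Hoxb8* and *Hoxb9* had between -0.77 and -0.13. *Hoxb2* had 0.454, 2.05 and 7.19 CPM in controls and 0.997, 5.66 and 19.8 CPM in RhoC tumors. R-14 and R-21 were highest, and the lower RhoC tumors lay among the controls. *Dlx3*, an epidermal factor, had 0.648, 3.42 and 40.2 CPM in controls and 0.118, 1.38 and 12.4 CPM in RhoC tumors. N-1, N-9 and N-7 were the highest controls, and the log2 fold change of -2.12 (SE 0.74) was -1.39 (SE 0.69) without N-1.

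Better expressed genes of the centromere side had smaller values. *Samd14* had 0.99, *Xylt2*, a xylosyltransferase that starts proteoglycan chains, 0.55, and *Epn3*, an epsin of endocytosis, 0.52 with R-6 and 0.14 without it. *Mbtd1*, a chromatin reader, had -0.45, *Luc7l3*, a splicing factor, -0.41, *Zfp652* -0.29 and the scaffold gene *Spag9* -0.28. Without the highest tumor *Luc7l3* had -0.24 and *Zfp652* -0.18 (N-1 left out) and *Spag9* -0.16 (N-4 left out). The nucleoside diphosphate kinase genes *Nme1* and *Nme2*, known from metastasis studies, had 0.22 and 0.54, and without R-13 0.10 and 0.39. They are close in sequence and share an overlapping transcript, so reads on both were discarded and their counts are uncertain. Antisense neighbors add to this uncertainty, since 27 of 66 centromere-side and 36 of 100 telomere-side genes overlapped a gene on the other strand, and the strand setting of the counting was not given in the sources used here.

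The choice of the genes did not use the difference among controls with and without the *Gata4* loxP allele, so this contrast was tested. No flanking gene passed the test. Of 63 centromere-side and 96 telomere-side genes that passed the filter in these 9 tumors, 0 passed an adjusted p of 0.05 in edgeR's quasi-likelihood test (0.00915% of 21846 genes did) and 0 in DESeq2 (1.15%). At an unadjusted p under 0.05 edgeR had 0 higher and 9 lower flanking genes in the tumors with the allele, beside 1.71% and 5.28% of all genes. The median log2 fold change was -0.08 on the centromere side, -0.15 on the telomere side and 0.01 over all genes. Without N-17 these medians were 0.35, -0.06 and 0.23, and without N-15 0.16, -0.09 and 0.05, with 1 tumor left without the allele. Without N-4 they were 0.04, -0.03 and 0.07. *Sgca*, a sarcoglycan of muscle, had the smallest p (log2 fold change -5.56, edgeR adjusted p = 0.50) and was at 7.03 CPM in N-17 and at most 0.319 CPM in the other controls, as the muscle markers were. *Ifi35*, an interferon-induced gene, had between 3.91 and 17.8 CPM in the 7 tumors with the allele and 22.3 and 51.9 CPM in the 2 without it (-1.79, edgeR adjusted p = 0.54). *Tmem106a* had between 7.89 and 27.6 CPM against 38.2 and 42.3 CPM (-1.26, edgeR adjusted p = 0.56). These groups did not overlap for either gene. All tumors with the allele lay below both others for 6 of the 159 flanking genes, beside 3.61% of all genes. With 2 tumors in a group, a p that missed the threshold does not show that the groups were alike.

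The genes nearest to the limits are given among those tested. *Utp18* (log2 fold change -0.06, and -0.15 without R-10) was the first one inside on the centromere side, and *Tom1l1* outside it had -0.31. *Hoxb2* (1.61) was the last tested gene inside, and *Skap1* outside it had 0.08. On the telomere side *P3h4* was inside the near limit (-1.37, and -0.83 without N-1). Its median was 6.47 CPM in controls and 17.2 CPM in RhoC tumors. *Jup* was outside that limit (-1.55, with a median of 533 CPM in controls and 1083 CPM in RhoC tumors). At the far limit *1700028N14Rik* (0.98, and -0.64 without R-2) was inside and *Arhgap27* (2.09), whose name the rule leaves out as well, outside. *Arhgap27* had 726.5 CPM in R-2 and 197 CPM in R-6, beside medians of 43.6 CPM in RhoC tumors and 25.2 CPM in controls.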

How the data were processed

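Mammary tumor RNA was prepared with a stranded, ribosomal RNA depleted total RNA kit and sequenced as paired ends. The authors checked reads with FastQC 0.11.5, trimmed them with Trim Galore 0.5.0, aligned them with STAR 2.6.0c to GRCm38.p6 and counted them with HTSeq 0.6.1p2, keeping uniquely mapping reads and discarding reads on several genes. Per tumor, whole-number counts of reads on genes were deposited by the authors, without normalization. A deposited table gives gene positions and FPKM scaled by the authors. Its columns of the authors' own comparison were not used.

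The flanking genes and the lists by role were chosen with earlier results of these data known. Counts were tested in R 4.3.3 with edgeR 4.0.16 (TMM, filterByExpr, glmQLFit and glmQLFTest, no covariates), with Benjamini-Hochberg adjustment over all genes tested and an adjusted p threshold of 0.05. Log2 CPM used a prior count of 2. Total counts per tumor set the counting error, and p-values measure the spread between tumors, some of which share a mouse. No pair of libraries correlated above 0.9706, so none was counted as a duplicate.

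Genes are named by a rule. It takes, on each side, the 6 largest and 4 smallest fold changes at mean log2 CPM over 2 and the 5 largest single-tumor deviations, the genes at the limits, 2 genes per list, 2 pairs of paralogs and 3 reference genes. Others were named after their values were seen. The result of 1 list by role is not reported here. Alternatives were DESeq2 1.42.0, voom of limma 3.58.1 with mouse as a random effect, other filters and scalings, sums by mouse, other sets of tumors, the tumor number as a block, other windows and, added after seeing the data, a correction for GC content. Promoter windows came from RefSeq (GRCm38.p6), and transcript GC and overlaps from GENCODE.

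The fits were also tested on simulated data.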

Additional observations from a re-analysis of the deposited data

Results flagged for a closer look

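Of 44 sets of 9 control values checked (both side medians and the log2 CPM of the named flanking genes), 5 held a tumor far from the other controls by its gap over the range, a mark that chance gives in about 1 of 20 sets. That rate does not hold for the genes here, since some were named for a high tumor or an extreme fold change. The telomere-side median deviation of N-4 was -0.7243, the tumor whose deviations went with GC content. Log2 CPM of *Acly* was 13.34 in N-9 beside 8.21 to 9.24 in the other controls, and that of *Dnajc7* was 10.29 beside 5.33 to 6.09, both within the stretch that was high in N-9. Log2 CPM of *Becn1* was 6.483 in N-6 beside 5.66 to 6.05. Log2 CPM of *Gfap* was 3.535 in N-17 beside -2.02 to 0.57, the tumor with high muscle and fat markers. The causes of these values were not tested.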

How the results depend on the processing

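The number of flanking genes called between cohorts was 0 in edgeR and stayed 0 without the filter, with library size, with normalization outside chromosome 11, summed by mouse, with voom and without the mouse of 4 tumors. It was 25 with DESeq2 and 7 with the *Gata4* loxP controls alone, and between 0 and 8 when tumors were left out singly (8 without N-15, 2 without R-10, 2 without R-12). Over all genes the calls rose as well, from 43 to 1206 with DESeq2 and 438 with the *Gata4* loxP controls alone. They were 346 without N-15, 94 without R-10 and 108 without R-12. In the *Gata4* contrast no flanking gene was called with DESeq2, without the filter, with library size or when tumors with the allele were left out singly. With 2 tumors in the other group, this does not show that the groups were alike. Leaving out N-15 or N-17 leaves 1 tumor there, and no count is read from those fits. When single tumors were omitted, the centromere-side median log2 fold change ranged from -0.11 (without N-9) to 0.17 (without N-1), and the telomere-side median from 0.43 (without R-2) to 0.59 (without N-15), and without the mouse of 4 tumors the latter was 0.60. With the tumor number as a replicate block the telomere-side median was 0.18, the centromere-side median 0.12 and 0 flanking genes were called, but the 4 shared numbers do not pair the tumors (correlations of deviations -0.24, -0.18, -0.003 and 0.02).

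Of 210 alternative values of the medians per tumor, 198 moved by less than the SD between tumors. Those that moved were, against the mean of the controls, N-1 0.39 and R-7 0.13 on the centromere side and R-6 0.52 on the telomere side, with the GC correction N-4 at -0.017 (centromere side) and -0.16 (telomere side), and with genes of mean log2 CPM over 3 on the centromere side N-4 0.048, N-7 -0.16, N-15 0.090, N-17 -0.25, R-1 0.33, R-10 0.010 and R-13 0.21. Windows of 7 genes gave 30 raised and 63 lowered on the centromere side of controls and 68 and 60 of RhoC tumors. Windows of 15 genes gave 9 raised and 8 lowered in controls and 19 raised in RhoC tumors there, and 22 lowered on the telomere side of RhoC tumors. A threshold of 1 left 0 and 0 windows on the centromere side of controls and 8 and 6 of RhoC tumors, and 19 raised and 32 lowered on the telomere side of controls and 75 and 6 of RhoC tumors. The causes were not tested, except that a higher threshold counts fewer windows by construction. Of 42 named flanking genes 10 changed sign under some alternative. Depth limits genes under 1 CPM, and intervals were not set for them.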
